A study of Mus musculus with 6 samples.

Results

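The 10 genes described here encode the MHC class II antigen-presenting machinery (Cd74, H2-Aa, H2-Ab1, H2-Eb1, H2-DMa, H2-DMb1 and their regulator Ciita) and 3 surface proteins tied to T cell costimulation (Cd80, Cd83 and Cd86). They are a list of named genes of this pathway, and no threshold on their values entered the list. The list was chosen with earlier results of these data known, so it is not independent of them. All 10 were found among the 55487 genes of the count table, and all 10 passed the filter on low counts that left 15774 genes for testing. The cells were neutrophils sorted from digested mouse lung by the surface protein Ly6G. Of the 6 bulk RNA-seq libraries, 3 (mutant) came from Mrp8-Cre;TGFbR2-fl/fl mice, in which Cre recombinase is driven by the promoter of S100A8 (Mrp8), a gene of neutrophils and some other myeloid cells. The other 3 (wt) came from Cre-negative TGFbR2-fl/fl littermates, so both groups carry loxP sites in Tgfbr2, the gene of the TGF-beta type II receptor (allele B6;129-Tgfbr2tm1Karl/J). The transgene also encodes EGFP, and its own effect and that of the targeted receptor cannot be told apart in this design. The labels state neither age nor sex. Cd74 lies on chromosome 18 (60803848 to 60812652, GRCm38). The genes H2-DMa, H2-DMb1, H2-Ab1, H2-Aa and H2-Eb1 lie on chromosome 17 between 34119541 and 34316674, in the MHC. Ciita (10480059 to 10528418), Cd86 (36603869 to 36666081) and Cd80 (38455561 to 38496335) lie on chromosome 16, and Cd83 (43784775 to 43803132) on chromosome 13.

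MHC class II molecules are pairs of an alpha and a beta chain that show peptides from endocytosed proteins to CD4 T cells. The invariant chain, encoded by Cd74, fills the groove of new molecules and guides them to endosomes, where proteases trim it and the H2-DM dimer exchanges its last fragment for peptide. Ciita switches these genes on together, constitutively in dendritic cells and B cells and in many other cells after interferon-gamma, while neutrophils are not classical antigen-presenting cells.

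The promoters of class II genes share short elements, among them the X and Y boxes just before the transcription start, and 3 promoters of members are shown because each holds the searched Y box letters close to its start. RefSeq windows of 300 bases (250 before to 50 after a start, GRCm38.p6) were matched for 5 of the 10 members. The letters ATTGG of the Y box and CCTAGNAAC, a form of the X1 box, were searched on both strands, and matches are in capitals. The 150 bases before the start are given 5′ to 3′ for H2-Aa (minus strand, chr17:34287824-34287973), H2-Eb1 (plus strand, chr17:34305717-34305866) and H2-DMb1 (plus strand, chr17:34153041-34153190).
H2-Aa: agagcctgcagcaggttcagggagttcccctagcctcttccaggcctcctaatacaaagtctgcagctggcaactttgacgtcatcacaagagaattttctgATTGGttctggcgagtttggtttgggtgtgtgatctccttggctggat
H2-Eb1: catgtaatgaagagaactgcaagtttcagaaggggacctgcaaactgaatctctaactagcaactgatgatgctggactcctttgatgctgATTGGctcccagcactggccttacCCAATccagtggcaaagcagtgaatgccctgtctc
H2-DMb1: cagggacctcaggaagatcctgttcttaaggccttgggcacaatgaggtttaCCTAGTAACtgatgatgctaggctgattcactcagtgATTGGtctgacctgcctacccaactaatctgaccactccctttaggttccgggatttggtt
The ATTGG letters began 48 bases before the start in H2-Aa, 59 in H2-Eb1, which also held their reverse complement, and 61 in H2-DMb1. Of all 32851 windows, 37.4% held this short motif. The X1 letters were found in H2-DMb1, beginning 98 bases before the start, and in 1.52% of all windows, while 0.53% held both motifs. The Cd80 window held neither, and 1 of the windows of H2-DMa held the ATTGG letters. A match describes letters and does not show a bound factor. The search took exact letters, so a missing match does not show that a box is absent. In H2-Eb1 the letters actagcaac differ from CCTAGNAAC in their first base only and were not counted.

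The libraries held 30403494 to 35906780 counts, and 3 counts in a library correspond to 0.0829 to 0.102 CPM (counts scaled to the TMM-adjusted library size). This limit covers counting error only, since PCR copies cannot be told from separate molecules. The series gives n = 3 mice a group without tying each library to a mouse, so the p-values here reflect variation among libraries. Tgfbr2 was at 176, 205 and 181 CPM in mutant replicates 1 to 3 and at 186, 185 and 201 CPM in wt replicates 1 to 3, and the groups overlapped. Its count pools all exons, so it does not check the deletion of a floxed part, and the mutant label was not checked by it. Csf3r, the G-CSF receptor of neutrophils, was at 7689 to 9233 CPM. Transcripts of other lung cells were present in every library, with 1117 to 1573 CPM summed over 6 endothelial markers and 219 to 924 over 7 alveolar type 2 markers. Because these are bulk samples, fewer cells of a type and less RNA per cell cannot be told apart.

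Per kilobase of exon, the members spanned a wide range of levels. Cd74 stood highest at 115 to 247 CPM per kb, above 98.3% of the tested genes. H2-Ab1, the I-A beta chain, followed at 48.9 to 83.2 CPM per kb and the B7 ligand Cd80 at 47.4 to 66.2. The beta chain gene H2-Eb1 was at 34.4 to 54.9 CPM per kb and H2-Aa, the I-A alpha chain, at 16.8 to 29.7. In every library these chains stood above the peptide exchange genes, with H2-Aa the closest to them. H2-DMb1 was at 8.67 to 14.4 and H2-DMa at 4.24 to 6.13 CPM per kb, with Cd83 (4.02 to 14.1) and Cd86 (6.20 to 10.7) between their means. The regulator Ciita was lowest, at 0.675 to 1.52 CPM per kb, above 37.7% of the tested genes. Neighbours in the order of means whose ranges over the 6 libraries overlapped were H2-Ab1 and Cd80, Cd80 and H2-Eb1, H2-DMb1 and Cd83, and Cd83 and Cd86. The other 5 neighbouring pairs did not overlap. Lengths sum the exons of all annotated transcripts, so a gene with long alternative exons is placed lower than its main mRNA would be.

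**Figure D1:**
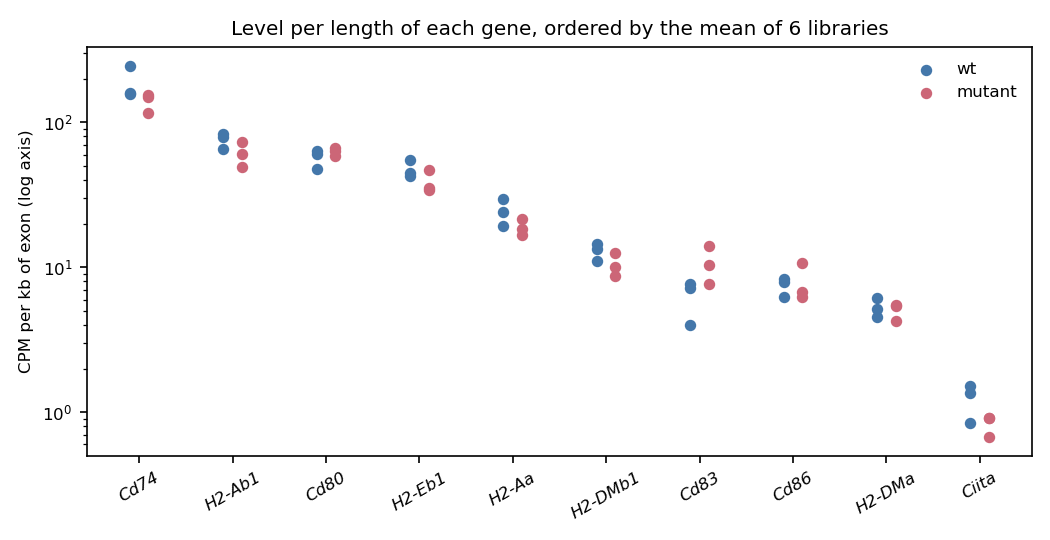
CPM per kilobase of exon (log axis) of each gene in every library, with wt in blue and mutant in red and ordered by the mean of the 6 libraries. Cd74 is highest at 115 to 247 and Ciita lowest at 0.675 to 1.52 CPM per kb.

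Of the B7 ligands, which bind CD28 and CTLA-4 on T cells, Cd80 was the more abundant in all 6 libraries. Cd86 stood at 0.101 to 0.167 of the Cd80 level in CPM in mutants and at 0.0967 to 0.166 in wt, and these ranges overlapped. The exon lengths of both genes are close (3661 bases for Cd86 and 3703 for Cd80).

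None of the 10 genes differed between mutant and wt at an adjusted p under 0.05 by edgeR, DESeq2 or limma-voom. Among all tested genes 0.00634% passed by edgeR (1 gene) and 1.55% by DESeq2. The 7 class II genes all had a negative log2 fold change (mutant minus wt) and the 3 costimulatory genes a positive one. The median over the 10 was -0.30, while over all tested genes it was 0.01 and 49.3% were negative. The members are not separate observations. Log2 CPM of Cd74, H2-Aa, H2-Ab1 and H2-Eb1 varied together over the 6 libraries, with a Pearson r of 0.60 to 0.93 between pairs. At an unadjusted p under 0.05, 1 member was lower (Cd74) and 1 higher (Cd83), where 3.22% of all tested genes were lower and 3.51% higher. The 3 mutant and 3 wt libraries did not overlap for 1 of the 10 members, Cd74, against 13.0% of all tested genes. Each count of 1 in 10 rests on a single gene. The count of lower members at an unadjusted p under 0.05 depended on single libraries. It was 4 without mutant replicate 3 (Cd74, H2-Aa, H2-Ab1 and H2-Eb1), 3 without wt replicate 2 (Cd74, H2-Ab1 and Ciita), 2 without wt replicate 3 (Cd74 and H2-Aa), and 0 without mutant replicate 1, mutant replicate 2 or wt replicate 1.

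**Figure D2:**
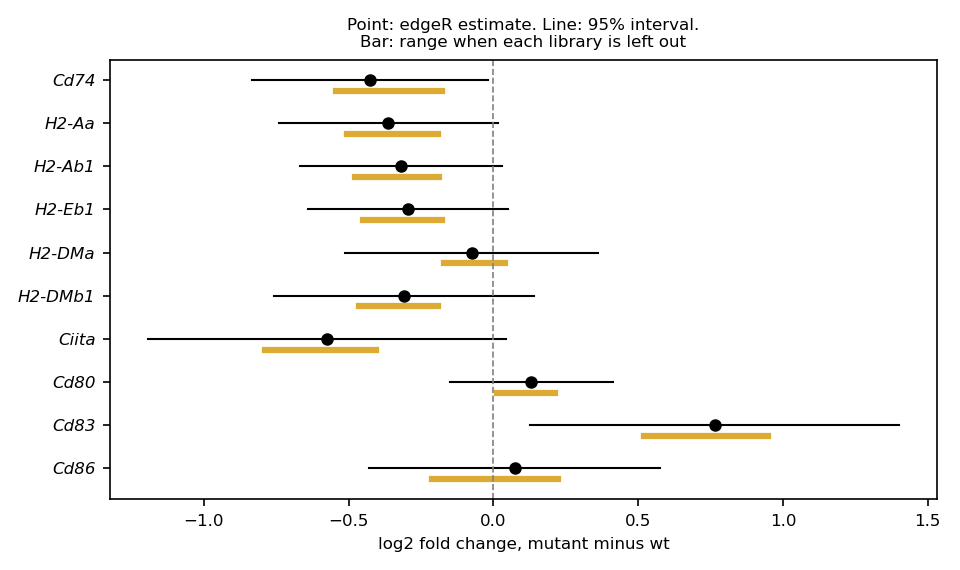
Log2 fold change of each gene, mutant minus wt, by edgeR (point) with its 95% interval (line) and the range of the estimate when each library is left out in turn (bar). The interval leaves out 0 for Cd74 (-0.83 to -0.02) and Cd83 (0.13 to 1.40), and the bars of H2-DMa and Cd86 cross 0.

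Cd74, the invariant chain, was at 252, 194 and 258 CPM in mutant replicates 1 to 3 and at 414, 262 and 268 CPM in wt replicates 1 to 3. Every mutant library lay below every wt library, but mutant replicates 1 and 3 were close to wt replicates 2 and 3, and wt replicate 1 stood far above the rest. The log2 fold change by edgeR was -0.43 ± 0.18 (SE, unadjusted p = 0.0427, adjusted p = 0.71). Without wt replicate 1 it was -0.18 (unadjusted p = 0.253, edgeR), and without mutant replicate 2 it was -0.31 (unadjusted p = 0.145, edgeR).

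The alpha and beta chain genes had smaller differences in the same direction. H2-Aa was at 69.6, 63.9 and 81.9 CPM in mutants and at 113, 90.9 and 72.9 in wt, so that wt replicate 3 fell within the mutant range. H2-Ab1 was at 155, 125 and 189 CPM in mutants and at 203, 168 and 214 in wt, with mutant replicate 3 above wt replicate 2. H2-Eb1, the I-E beta chain, was at 68.5, 66.8 and 90.6 CPM in mutants and at 107, 86.8 and 83.5 in wt, with mutant replicate 3 above wt replicates 2 and 3. In all 3 genes the groups overlapped and the lowest library was mutant replicate 2. By edgeR the log2 fold changes were -0.36 ± 0.17 for H2-Aa, -0.32 ± 0.16 for H2-Ab1 and -0.29 ± 0.15 for H2-Eb1 (SE), with adjusted p of 0.765, 0.779 and 0.799. Without wt replicate 1 they were -0.19, -0.29 and -0.18 in that order. Without mutant replicate 2 the value of H2-Ab1 was -0.19. Without mutant replicate 3 the values of H2-Ab1 and H2-Eb1 were -0.48 and -0.45.

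The strains C57BL/6 and 129 are known to carry an MHC haplotype in which the alpha chain gene of I-E is inactive. Its entry H2-Ea-ps held 1 count in mutant replicate 3 and 0 in the other 5 libraries, under the limit of 3 counts, while H2-Eb1 was plentiful in each.

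**Figure D3:**
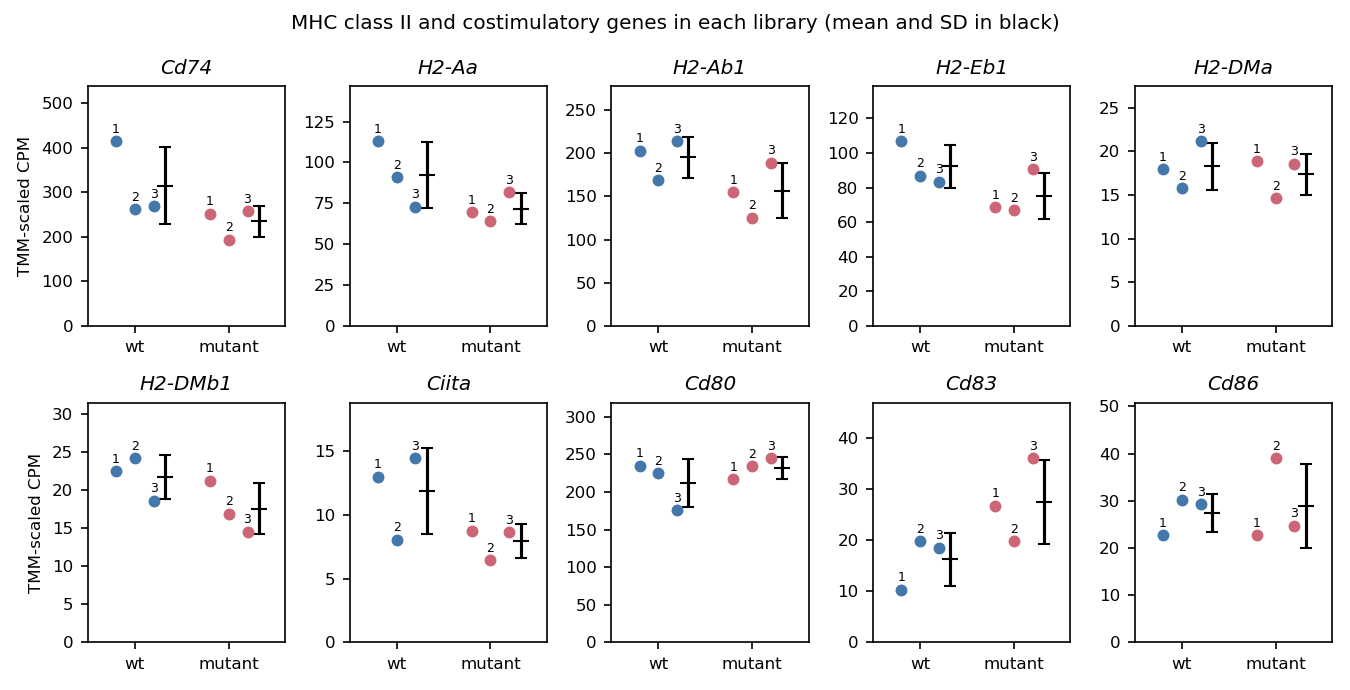
TMM-scaled CPM of the 10 genes in each library (points, numbered by replicate), with wt in blue and mutant in red, with the mean and SD of 3 libraries in black. Wt replicate 1 is the highest library for Cd74 (414 CPM), H2-Aa and H2-Eb1, and Cd83 is highest in mutant replicate 3 (36.2 CPM).

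The peptide exchange dimer came next. H2-DMb1, its beta chain, was at 21.3, 16.9 and 14.6 CPM in mutants and at 22.5, 24.3 and 18.6 CPM in wt, with a log2 fold change of -0.31 ± 0.20 (SE, adjusted p = 0.881, edgeR). That value was -0.19 without mutant replicate 3 and -0.47 without mutant replicate 1. H2-DMa, its alpha chain, was at 18.9, 14.6 and 18.6 CPM in mutants and at 17.9, 15.8 and 21.1 in wt, and the 95% interval of its log2 fold change, -0.07, ran from -0.51 to 0.36. The groups overlapped in both genes. H2-DMa shares 360 exon bases with Brd2 on the other strand, whose counts came to 733% of those of H2-DMa. The library kit marks no strand, so reads of this pair in the shared bases cannot be told apart. H2-DMb1 has a close relative, H2-DMb2, at 14.8, 11.8 and 13.9 CPM in mutants and 6.31, 11.0 and 13.2 in wt, and the assignment of reads alike in this pair makes both values uncertain.

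Ciita, the class II coactivator, had 190 to 463 counts per library. It was at 8.76, 6.44 and 8.64 CPM in mutants and at 13.0, 8.06 and 14.5 CPM in wt. Wt replicates 1 and 3 stood above all mutant libraries, whereas wt replicate 2 lay within the mutant range. The log2 fold change was -0.57 ± 0.28 (SE, adjusted p = 0.772, edgeR), with a 95% interval from -1.19 to 0.04. The count pools its alternative first exons, which different cell types are known to use. Of its exons, 329 bases overlap Dexi on the other strand, whose counts came to 16.6% of those of Ciita.

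Among the costimulatory genes Cd80 varied least between libraries. It was at 216, 234 and 245 CPM in mutants and at 235, 225 and 176 CPM in wt, where wt replicate 3 was the lowest of the 6. Its log2 fold change of 0.13 had a 95% interval from -0.15 to 0.41 (adjusted p = 0.942, edgeR). It was 0.01 without wt replicate 3 and 0.21 without wt replicate 1. Cd86 was at 22.7, 39.1 and 24.7 CPM in mutants and at 22.7, 30.2 and 29.2 in wt. Mutant replicate 2, the lowest library for Cd74 and the chains, was the highest for Cd86, and the log2 fold change of 0.07 was -0.21 without it.

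Cd83, an activation marker of dendritic cells and B cells, was at 26.8, 19.8 and 36.2 CPM in mutants and at 10.3, 19.8 and 18.6 CPM in wt. Mutant replicate 2 and wt replicate 2 were nearly equal, mutant replicates 1 and 3 stood above all wt libraries, and wt replicate 1 was the lowest of all. The log2 fold change by edgeR was 0.76 ± 0.29 (SE, unadjusted p = 0.0234, adjusted p = 0.621). By edgeR the unadjusted p was 0.115 without mutant replicate 3 and 0.0795 without wt replicate 1. Wt replicate 1 was thus the lowest library for Cd83 and the highest for Cd74.

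Over the 6 libraries Cd74, H2-Aa, H2-Ab1 and H2-Eb1 summed to 544, 449.9 and 619 CPM in mutant replicates 1 to 3 and to 837, 608 and 638 CPM in wt replicates 1 to 3. Mutant replicate 3 exceeded wt replicate 2, so the groups overlapped. Among 8250 other genes with an established symbol and a mean of at least 5 CPM, the log2 CPM of App, Usp7, Hook2, Fbxo31 and Pbrm1 were most like the mean log2 CPM of these 4 genes. Their Pearson r over the 6 libraries was 0.976 to 0.994, a description of libraries that span both groups and share depth and composition.

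**Figure D4:**
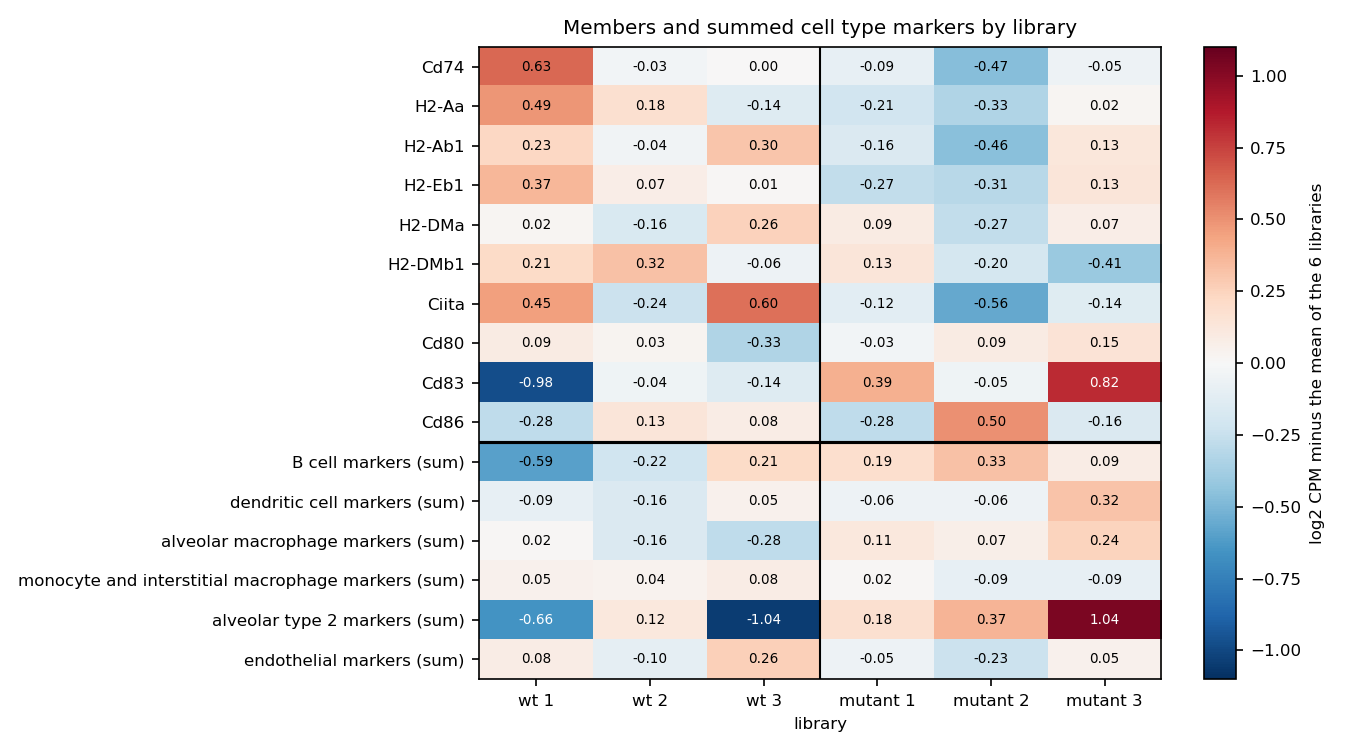
Log2 CPM of the 10 genes (above the line) and of summed cell type markers (below it) in each library, minus the mean of the 6 libraries, with red above and blue below the mean. Wt replicate 1 is high for Cd74 (0.63) and low for Cd83 (-0.98), and mutant replicate 3 is high for alveolar type 2 markers (1.04).

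Summed markers of cell types known to carry class II were present in every library, at levels that differed widely between cell types. B cell markers summed to 65.3 to 77.1 CPM in mutants and 40.8 to 71.4 in wt, and 7 of 8 had a positive log2 fold change. Dendritic cell markers summed to 41.9 to 54.4 and 39.1 to 45.1 CPM, and 2 of 8 tested, of 10 listed, were positive. In that list Flt3 and Siglech were at 0 in mutant replicate 3, and Clec10a was at 0 in mutant replicate 2 and wt replicate 2. The homing receptor Ccr7 held a large part of the dendritic sum, at 17.6, 19.4 and 28.8 CPM in mutants and 10.4, 8.72 and 15.9 in wt, and like Cd83 it was highest in mutant replicate 3. Ccr7 and Siglech were the 2 positive dendritic markers. The other 6 tested were negative, the direction of the class II genes, and the median log2 fold change of the tested dendritic markers was -0.32. With Ccr7 left out, the dendritic sum was lower in every mutant library than in every wt library. Alveolar macrophage markers summed to 246 to 279 CPM in mutants and 193 to 238 in wt, with 8 of 8 positive. Those of monocytes and interstitial macrophages summed to 804 to 866 and 879 to 904 CPM, with 4 of 10 positive. Alveolar type 2 cells, which carry class II in healthy lung, had marker sums of 509 to 924 CPM in mutants and 219 to 488 in wt, with 7 of 7 positive. The sums of alveolar macrophage and alveolar type 2 markers were thus higher in every mutant library than in every wt library, opposite in direction to the class II genes. Siglecf and Car4 held a large part of the alveolar macrophage sum, and the groups overlapped in both. Siglecf was at 89.3, 109 and 67.3 CPM in mutants and 81.2, 80.3 and 78.9 in wt. Car4 was at 92.4, 83.8 and 148 CPM in mutants and 113, 86.8 and 85.0 in wt. In 2 of these 8 markers every mutant library lay above every wt library. The sum for monocytes and interstitial macrophages was lower in every mutant library than in every wt library, the direction of the class II genes. Csf1r held a large part of that sum, at 614, 580 and 546 CPM in mutants and 641, 624 and 681 in wt. It was the only 1 of these 10 markers whose groups did not overlap, and their median log2 fold change was -0.03. Endothelial markers summed to 1117 to 1357 and 1224 to 1573 CPM with 0 of 6 positive, and fibroblast markers to 371 to 600.4 and 271 to 321 CPM with 5 of 6 positive. T cell markers summed to 16.0 to 24.1 and 11.1 to 27.8 CPM, with overlapping groups. Neutrophil markers summed to 26264 to 35375 CPM in mutants and 31680.1 to 33782 in wt, with 1 of 8 positive. In these lists 0 markers passed the adjusted threshold by edgeR. At an unadjusted p under 0.05 edgeR gave 7 higher alveolar type 2, 4 higher fibroblast, 3 higher alveolar macrophage and 1 higher dendritic cell marker, and 2 lower neutrophil markers. DESeq2 called 2 higher alveolar type 2, 2 higher fibroblast and 2 lower neutrophil markers. The part of any of these cells in the results on the 10 genes was not tested.

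The remaining class II genes were split in direction. Of 4 tested, 2 were positive and 2 negative, and 0 passed by edgeR, with 0 at an unadjusted p under 0.05, or by DESeq2, which gave 2 of them an adjusted p. H2-Ob, which with H2-Oa forms the H2-DO inhibitor of H2-DM known from B cells, was at 13.6, 11.2 and 19.5 CPM in mutants and 7.62, 13.3 and 17.8 in wt. H2-Oa was low, at 0.829 to 1.76 CPM in mutants and 1.18 to 1.75 in wt, and H2-Eb2 at 0.154 to 1.29 and 0.396 to 2.06. Wt replicate 1, highest for Cd74, was the lowest library for H2-Ob and H2-DMb2, as it was for the B cell markers.

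The endosomal genes that prepare class II leaned towards higher values in mutants. Of 9 tested genes for proteases, a protease inhibitor, a reductase and ligases that turn over class II, 0 passed by edgeR or DESeq2 (2 higher at an unadjusted p under 0.05 by edgeR) and 8 were positive, with a median log2 fold change of 0.10. The protease Ctsl was at 94.1, 105 and 122 CPM in mutants and 83.2, 84.1 and 72.5 in wt (adjusted p = 0.498, edgeR). Lgmn, an asparaginyl endopeptidase, was at 50.8, 47.4 and 59.6 CPM in mutants and 46.2, 32.2 and 40.9 in wt (adjusted p = 0.681, edgeR). In both genes every mutant library lay above every wt library. Ctss, the protease that makes the last cuts in the invariant chain, was at 212, 160.1 and 203 CPM in mutants and 211, 181 and 157 in wt, with overlapping groups. Highest per length were the protease Ctsd, with a mean of 374 CPM per kb, and the inhibitor Cst3, with 216. Macrophages also express these lysosomal genes, and the sum of alveolar macrophage markers was higher in mutants as given above. The part of these cells in these values was not tested.

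Genes that act on class II transcription leaned towards lower values. Of 14 tested, 0 passed by edgeR (2 lower at an unadjusted p under 0.05) and 11 were negative, with a median log2 fold change of -0.05. Irf1, an interferon-induced factor known to activate a promoter of Ciita, was at 324, 337 and 301 CPM in mutants and at 889.8, 448 and 613 CPM in wt (log2 fold change -1.02, adjusted p = 0.276, edgeR). By DESeq2 the adjusted p of Irf1 was 8.06e-05, the sole call of that test in this list. Every mutant library lay below every wt library for Irf1, and wt replicate 1 was the highest, as for Cd74. Rfx5, Rfxap and Rfxank, the subunits of the X box factor, were at 2.91 to 4.36, 0.800 to 2.41 and 7.63 to 12.6 CPM over all libraries. Spi1 (PU.1), a myeloid factor, was highest per length with a mean of 539 CPM per kb, and was at 1446 ± 184 CPM in mutants against 1458 ± 54.1 for wt (mean ± SD of 3 libraries).

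Receptors and kinases upstream of class II induction were present in every library. Of 10 tested, 0 passed by edgeR or DESeq2, with 0 at an unadjusted p under 0.05, and 8 were negative, with a median log2 fold change of -0.09. Ifngr1, the ligand-binding chain of the interferon-gamma receptor, was at 398, 397 and 380.4 CPM in mutants and at 424, 432 and 429 in wt. Its groups did not overlap, and the difference was small (log2 fold change -0.13, adjusted p = 0.882, edgeR). Il4ra, the interleukin 4 receptor, was at 456, 513 and 472 CPM in mutants and 566, 490.2 and 623 in wt, with overlapping groups. Highest per length were the GM-CSF receptor Csf2ra, with a mean of 217 CPM per kb, and the interleukin 10 receptor Il10ra, with 169.

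Other ligands read by T cells were mixed. Of 17 listed genes 13 were tested, of which 0 passed by edgeR (1 higher at an unadjusted p under 0.05) and 8 were positive, with a median log2 fold change of 0.19. Tnfsf4, Tnfsf18, Cd70 and Vtcn1 had 0 counts in every library, which allows up to 0.0829 to 0.102 CPM. The adhesion ligand Icam1 was at 247, 224 and 309.7 CPM in mutants and 186, 170.1 and 194 in wt (unadjusted p = 0.00326, adjusted p = 0.37, edgeR), and DESeq2 called it (adjusted p = 0.0241). Cd276 (B7-H3) was low, at 1.74, 0.745 and 1.41 CPM in mutants and 0.197, 0.561 and 0.500 in wt. In both genes every mutant library lay above every wt library. Highest per length were the inhibitory ligand Vsir (VISTA), with a mean of 166 CPM per kb, and the galectin Lgals9, with 157. Both stood above Cd80 and Cd86 per length.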

How the data were processed

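Per the labels' protocols, cDNA was made by a SMART-Seq v2 protocol, which marks no strand, and sequenced in pairs. The authors deposited raw whole-number counts per gene. STAR, featureCounts and GRCm38 are named in the submitters' processing notes; for versions and annotation release, the sources used here give nothing. Symbols came from GENCODE M21. Genes were kept by filterByExpr (minimum count 10) and libraries scaled by TMM. Mutant and wt were compared over all 15774 genes kept with the quasi-likelihood test of edgeR (version 4.0.16 in R 4.3.3) with Benjamini-Hochberg adjustment and a threshold of 0.05. A standard error is the log2 fold change over the root of F. The test was tested on simulated data with 100 changed genes. It recovered 35% of them at a 2-fold change and 65% at a 4-fold change, with 2 false calls each. Among those at 10 CPM or more it recovered 80.5% and 100%. The largest log2 fold change of a member, 0.76 for Cd83, is smaller than a 2-fold change, so changes of such size can be missed. DESeq2 1.42.0 and limma-voom (limma 3.58.1), other scalings, other filters and leaving out each library were alternatives. Replicate numbers follow deposition order and only name libraries. The members and lists were chosen with earlier results of these data known. Beside the members the text names, for each context list, the 2 tested genes with the smallest p and the 2 highest per length, then the other class II genes, Irf1, Ifngr1 and the 5 genes most like the class II mean. One gene that this rule names is not reported here. Ctss, Ccr7, the RFX subunits and genes at 0 were named after their values were seen.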

Additional observations from a re-analysis of the deposited data

How the results depend on the processing

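Under 13 alternatives (2 other scalings, 3 other tests, 2 other filters and each of 6 libraries left out) 0 of the 10 genes passed, with the smallest adjusted p at 0.217 (Cd83, DESeq2). Of 129 log2 fold changes 125 kept their direction. With single libraries left out, H2-DMa ranged from -0.17 to 0.04, turning to 0.03 without mutant replicate 2 and to 0.042 without wt replicate 3. Cd86 ranged from -0.21 to 0.22, turning to -0.21 without mutant replicate 2 and to -0.04 without wt replicate 1. Among all genes edgeR called 1, DESeq2 150, edgeR without a filter on low counts 70, edgeR restricted to means of 10 CPM or more 18, and edgeR with single libraries left out 0 to 2. The cause was not tested. Ciita has no value under the 10 CPM filter, since its mean is lower. At an unadjusted p under 0.05, Cd74 was lost with library totals alone and without mutant replicate 1, mutant replicate 2 or wt replicate 1, and Cd83 without mutant replicate 3 or wt replicate 1. Members were also gained: lower members numbered 3 with DESeq2 and without a filter on low counts (Cd74, H2-Aa and H2-Ab1), 2 with limma-voom (Cd74 and H2-Ab1), and 0 to 4 with single libraries left out. No paired analysis was possible because the labels carry no number that links a mutant to a wt library.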
